A study of Mus musculus with 12 samples.

Results

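The interferon-induced GTPase genes Mx2, Gm4951, Gbp5, Gbp6 and Gbp10 (5 genes) were taken by gene name from the authors' 2 deposited tables, which together list 2600 genes. Of these, all 5 are listed in the siDUSP6 and NC table (2150 genes). Mx2 and Gbp6 are also listed in the GFP-DUSP6 and GFP table (707 genes), where Gbp5, Gbp10 and Gm4951 have no row, so their counts with the plasmids are not known here. RNA was sequenced from AML12 cells, a mouse hepatocyte line established from mice carrying a human TGF-alpha transgene, in 12 libraries. In 1 contrast, 3 siDUSP6 libraries (cells given siRNA against Dusp6) were set against 3 NC libraries (NC siRNA, genotype labelled WT), all collected 48 h after transfection. In the other, 3 libraries labelled GFP-DUSP6 (plasmid for the fusion protein) were set against 3 GFP libraries (plasmid for GFP alone), all collected 24 h after transfection. All 4 groups were transfected, were grown in medium with serum, dexamethasone and ITS supplement, and come from this 1 line, and no untransfected group is part of the data used here.

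Interferons signal through JAK kinases and STAT transcription factors, and cells answer by making many proteins that act against viruses, bacteria and parasites. Among these are families of large GTPases. Mx proteins resemble dynamin and act on viral particles, guanylate-binding proteins (GBPs) coat pathogens and their vacuoles and feed into inflammasome activation, and the smaller immunity-related GTPases (IRGs) act on vacuole membranes in mice. Hepatocytes respond to interferon and can express all 3 families.

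Mx2 (ENSMUSG00000023341) lies on chromosome 16 at chr16:97535308-97560900 on the plus strand of GRCm38, the assembly known as mm10. GENCODE M21 annotates it as a polymorphic pseudogene, since common laboratory strains carry an allele that does not encode the full protein. Its count therefore measures RNA and says nothing of a working Mx2 protein. Gbp5 (ENSMUSG00000105504, chr3:142493978-142522344, plus strand) belongs to the Gbp cluster of chromosome 3. Gbp6 (ENSMUSG00000104713, chr5:105270702-105293698) and Gbp10 (ENSMUSG00000105096, chr5:105215699-105239533) are neighbours on the minus strand in the Gbp cluster of chromosome 5.

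Gbp6 and Gbp10 are close to identical copies, and what their separate counts can say is limited by this. Their coding sequences, 1833 bases each in GENCODE M21, aligned without gaps and matched at 1803 bases (98.4%), with 30 mismatches. The longest run without a mismatch was 421 bases. The 90-base stretch with the most differences, 12 of 90, is shown because reads from it can tell the copies apart. It spans coding bases 1556 to 1645 of each gene, at chr5:105274192-105274281 (Gbp6) and chr5:105218392-105218481 (Gbp10), and is printed along the minus strand with differing bases in capitals.
Gbp6: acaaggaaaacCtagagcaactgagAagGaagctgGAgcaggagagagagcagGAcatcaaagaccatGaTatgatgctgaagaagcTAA
Gbp10: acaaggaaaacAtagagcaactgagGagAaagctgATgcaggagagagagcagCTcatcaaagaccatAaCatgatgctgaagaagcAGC
Of the 50-base words of Gbp10 transcripts, 84.1% also occur in a transcript of another gene, and 73.3% occur in Gbp6. Of the words of Gbp6, 70.7% are shared, 65.0% with Gm43302, an annotated gene that overlaps exons of both and is listed in neither table. By contrast 4.62% of words were shared for Gm4951, 4.38% for Mx2 (all of them with Mx1) and 1.44% for Gbp5. Gm43302 also holds 72.1% of the words of Gbp10. No source used here gives the counting tool or its handling of shared reads, so the split of counts between Gbp6 and Gbp10 is uncertain. Shared reads may also have been dropped or counted for Gm43302, so the levels of both genes, zeros included, are uncertain too.

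**Figure D1:**
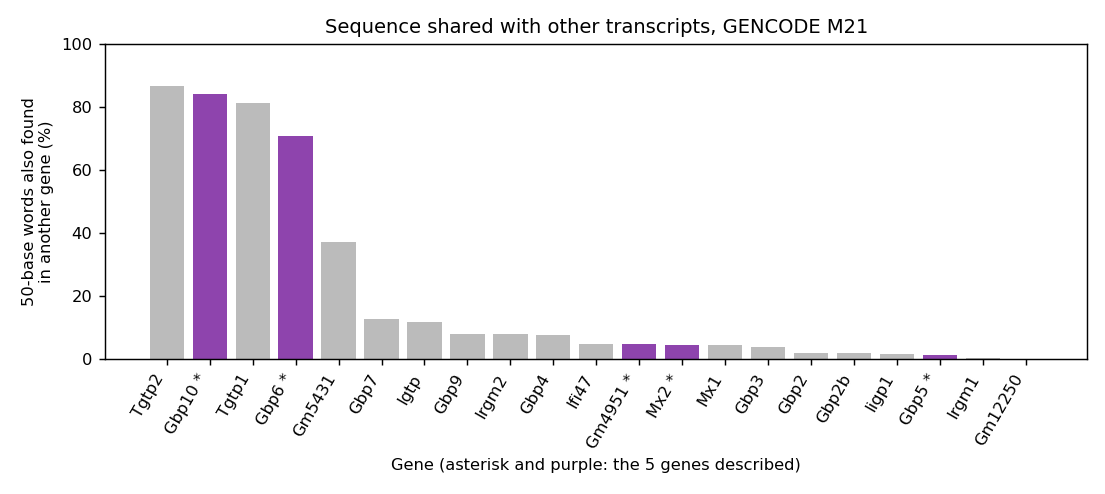
Percentage of the 50-base words of each gene's GENCODE M21 transcripts that also occur in a transcript of another gene (y axis), for the listed Gbp, Mx and IRG genes (x axis); purple bars with asterisks are the 5 genes described. Gbp10 and Gbp6 stand at 84.1% and 70.7%, and Mx2, Gm4951 and Gbp5 lie below 5%.

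The start site region of Gbp5 is shown because it holds letters of both kinds of element that interferon-activated factors bind. The interferon-stimulated response element (ISRE) was searched as GAAANNGAAA and the gamma-activated site (GAS) as TTCNNNGAA, each on both strands, where the GAS letters read the same both ways. Windows ran from 250 bases before the RefSeq start site to 50 after it (GRCm38.p6), and the first transcribed base is position 0. The other 4 genes, Mx2, Gbp6, Gbp10 and Gm4951, have no entry in the promoter table used. Gbp7, its neighbour on chromosome 3, and Irgm2, an IRG gene of chromosome 11, are printed beside it, all on the plus strand, with matches in capitals. The windows are chr3:142496684-142496983 (Gbp5), chr3:142530086-142530385 (Gbp7) and chr11:58214727-58215026 (Irgm2).
Gbp5: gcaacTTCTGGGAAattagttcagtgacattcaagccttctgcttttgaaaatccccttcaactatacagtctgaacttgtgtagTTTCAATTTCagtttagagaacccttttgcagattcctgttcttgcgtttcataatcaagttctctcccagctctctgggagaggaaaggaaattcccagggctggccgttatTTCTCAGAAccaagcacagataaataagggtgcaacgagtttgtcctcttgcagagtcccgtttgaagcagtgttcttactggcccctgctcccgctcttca
Gbp7: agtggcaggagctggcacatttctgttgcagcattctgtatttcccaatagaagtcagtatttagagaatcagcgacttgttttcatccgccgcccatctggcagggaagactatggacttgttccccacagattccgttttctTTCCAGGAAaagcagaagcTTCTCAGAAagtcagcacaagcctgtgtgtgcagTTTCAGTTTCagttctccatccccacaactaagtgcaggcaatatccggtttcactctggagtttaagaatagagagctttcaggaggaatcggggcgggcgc
Irgm2: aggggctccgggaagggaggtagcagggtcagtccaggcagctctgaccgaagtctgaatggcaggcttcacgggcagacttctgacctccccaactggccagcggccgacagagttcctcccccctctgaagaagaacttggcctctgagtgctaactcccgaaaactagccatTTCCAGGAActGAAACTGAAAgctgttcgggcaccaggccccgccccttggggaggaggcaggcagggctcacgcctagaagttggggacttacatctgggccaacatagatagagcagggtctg
In Gbp5 the ISRE letters start at position -165 and the GAS letters at -245 and -52. In Gbp7 they start at -53 (ISRE), -106 and -87 (GAS), and in Irgm2 at -64 (ISRE) and -75 (GAS). Of 17 windows of the Gbp, Mx, IRG and Gvin (very large interferon-inducible GTPase) lists, which stand for 16 of 30 genes, 13 held the ISRE letters (76.5%) and 7 the GAS letters (41.2%). Over all 32851 windows of the table the shares were 3.44% and 8.30%. The printed windows all hold both kinds of letters and do not stand for the lists as a whole. Those of Ifi47 and Gm5431 held neither kind, and those of Gbp2 and Irgm1 held ISRE but no GAS letters. A match is a description of letters and not evidence of binding.

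Mx2 rose strongly in the siDUSP6 libraries, and Gm4951, Gbp6, Gbp10 and Gbp5 were counted in every library, where all NC libraries were at 0 for these 4. Dusp6, the targeted gene, was lower in the same libraries: it had 1770, 1905 and 1771 counts with siDUSP6, against 4047, 3752 and 3888 with NC, a log2 fold change of -1.14 in the authors' deposited table (adjusted p = 3.74e-56, DESeq2). Mx2, the Mx family member, had 551, 442 and 311 raw counts with siDUSP6, against 8, 5 and 7 with NC. Every siDUSP6 library lay far above every NC library. Divided by size factors (scaling for library depth) this was 426.4 ± 115 with siDUSP6 against 6.71 ± 1.39 with NC (SD, n = 3 each). The log2 fold change was 5.96 ± 0.30 (SE; edgeR quasi-likelihood refit, Benjamini-Hochberg adjusted p = 2.79e-07), and the deposited adjusted p was 2.38e-52 (DESeq2). It ranged from 5.75 to 6.14 when each library was left out in turn, with adjusted p (edgeR) from 1.64e-08 to 1.79e-05.

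Mx2 was the only one of the 5 genes with a deposited adjusted p in this contrast, and so 1 of 5 was called, where 15.0% of the 13102 genes that the authors' adjusted p values imply as tested were called and 7.76% were called higher. The edgeR refit passed the same 1 of 5, with 6.50% of genes higher, although only the 2150 listed genes could pass it. The other 4 genes have a deposited p but no adjusted p. Their counts were too low for the count filter of the edgeR refit (at least 10 counts in 3 libraries of the average size).

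Gm4951 (ENSMUSG00000073555, chr18:60212080-60247820, plus strand) is the IRG family member, which the deposited description matches to interferon-inducible GTPase 1. It had 20, 9 and 9 raw counts with siDUSP6, against 0, 0 and 0 with NC. Summed, 38 counts (exact Poisson 95% interval 26.9 to 52.2) stood against 0. With the 0 of the NC group replaced by 3 counts in all as a floor, Gm4951 was 12.3-fold higher. Such a value is called a bound here. It allows for error in the 0 only, and not for counting error or spread in the siDUSP6 counts. The interval, as all counting intervals given here, covers counting error only and not the spread between libraries. Replicate 1 was higher than the other 2 siDUSP6 libraries, and the groups did not overlap.

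Gbp6 had 17, 9 and 8 raw counts with siDUSP6, against 0, 0 and 0 with NC. The sum of 34 (interval 23.5 to 47.5) makes it 11.0-fold higher on the same floor. In mouse macrophages Gbp6 and Gbp10 have been linked to defence against intracellular bacteria. Gbp10 had 8, 14 and 6 raw counts with siDUSP6, against 0, 0 and 0 with NC. Its sum was 28 (interval 18.6 to 40.5), 9.03-fold higher on the same floor. Which of the copies is higher changed from library to library: Gbp6 was ahead in replicates 1 and 3, and Gbp10 in replicate 2. With counts this low and sequence this similar, the 2 genes' levels could not be told apart.

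Gbp5, which promotes assembly of the NLRP3 inflammasome in mouse macrophages, had 9, 12 and 1 raw counts with siDUSP6, against 0, 0 and 0 with NC. The sum of 22 (interval 13.8 to 33.3) makes it 7.07-fold higher on the same floor, and 4.88-fold without siDUSP6 replicate 2. It was the lowest and the most uneven of the 5, with a single count in replicate 3. These bounds rest on the number of NC libraries: without NC replicate 3 they were 8.09 for Gm4951, 7.23 for Gbp6, 5.92 for Gbp10 and 4.63 for Gbp5, and without NC replicate 1 they lay between 4.69 (Gbp5) and 8.19 (Gm4951).

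**Figure D2:**
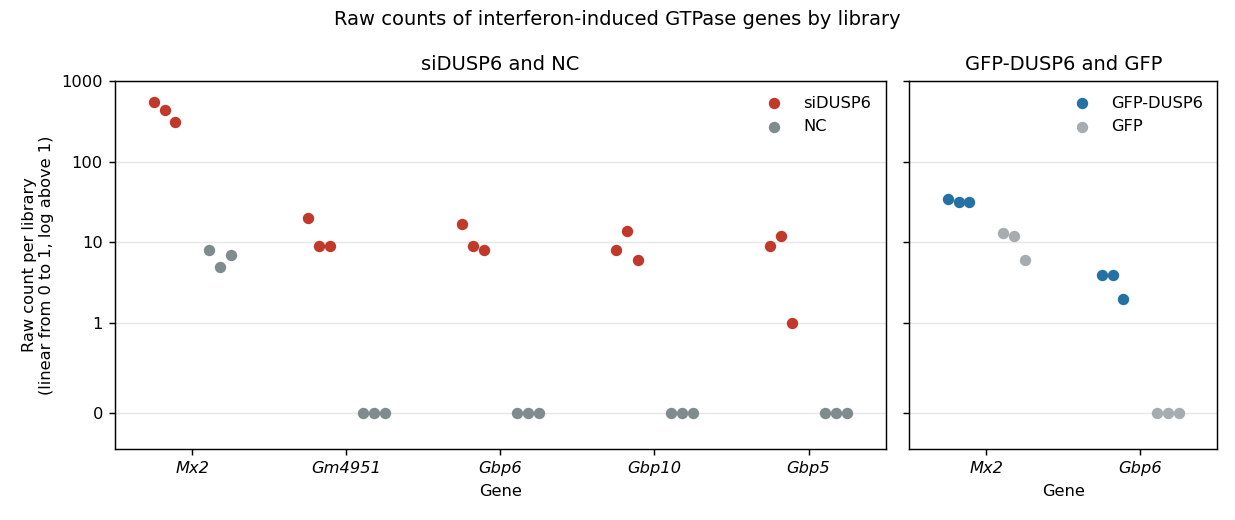
Raw counts per library (y axis, linear from 0 to 1 and logarithmic above) of the 5 genes in siDUSP6 and NC libraries (left) and of the 2 listed genes in GFP-DUSP6 and GFP libraries (right); each dot is 1 library. Mx2 lies between 311 and 551 with siDUSP6 and between 5 and 8 with NC, and the other 4 genes lie between 1 and 20 with siDUSP6 and at 0 with NC.

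The unadjusted p values of these 4 in the authors' deposited table (DESeq2) were 2.68e-05 for Gm4951, 5.45e-05 for Gbp6, 0.000210 for Gbp10 and 0.00193 for Gbp5. When the edgeR refit was run without its count filter, all 4 passed: the adjusted p was 0.00784 for Gm4951, 0.00830 for Gbp6, 0.0124 for Gbp10 and 0.0450 for Gbp5. So 5 of 5 were higher under that setting, and also in a DESeq2 refit. Only the 2150 listed genes were refitted, and 905 and 1024 of them passed as higher (6.91% and 7.82% of 13102). These 4 genes are listed with small p values from the same counts, so their passing is no separate support. The adjustment in both refits runs over 13102 genes that do not include these 4 in the authors' own test. Fitted fold changes against a group at 0 depend on the fit's prior count and are not used here. For each of the 5 genes every siDUSP6 library was above every NC library, which held for 52.0% of the 2150 listed genes, and the exact two-sided permutation test gave its smallest possible p of 0.1 for 3 against 3. The labels do not say whether replicates are separate cultures, so p values measure the spread between libraries, which may be technical.

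Per length of exon, Mx2 was far above the other 4 genes, and neighbours among those 4 overlapped. In siDUSP6 libraries Mx2 stood at 118 ± 31.9 normalized counts per kb (SD, n = 3), Gm4951 at 4.71 ± 2.37, Gbp10 at 2.35 ± 1.00, Gbp6 at 1.87 ± 0.82 and Gbp5 at 1.07 ± 0.83. In that order only the step between Mx2 and Gm4951 separated neighbours without overlap. Farther apart in the order, every library of Gm4951 (7.44, 3.27 and 3.41 per kb) lay above every library of Gbp6 (2.81, 1.45 and 1.35) and of Gbp5 (1.33, 1.74 and 0.15). Reads that Gbp6 and Gbp10 share with other genes may be missing from their counts, so the places of Gbp6 and Gbp10 in the order are uncertain. The lengths are unions of all annotated exons, which are long for Gbp5 (6637 bases) and Gbp6 (5954 bases) and short for Gm4951 (2645 bases). In bulk RNA, more cells that express a gene and more RNA in each cell cannot be told apart.

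**Figure D3:**
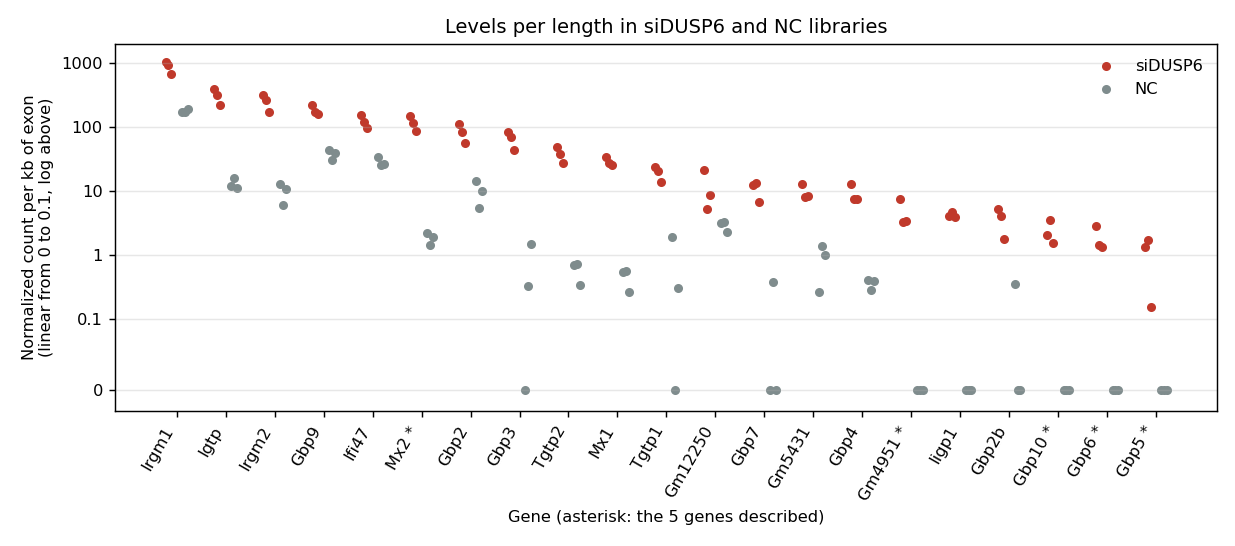
Normalized counts per kb of exon (y axis, linear from 0 to 0.1 and logarithmic above) in each siDUSP6 and NC library, for the listed Gbp, Mx and IRG genes ordered by their siDUSP6 mean (x axis); asterisks mark the 5 genes described. Mx2 stands at 118 per kb among the upper genes, and Gm4951, Gbp10, Gbp6 and Gbp5 are among the lowest, with all NC libraries at 0.

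Libraries differed in how much of these transcripts they held. After scaling, replicate 1 was highest for Mx2, Gm4951 and Gbp6 and replicate 2 for Gbp10 and Gbp5, and replicate 3 was lowest for Mx2, Gbp6, Gbp10 and Gbp5. Over the 21 listed Gbp, Mx and IRG genes, which include those just named, replicate 1 was highest for 17 (81.0%) and replicate 3 lowest for 17 (81.0%). Among all 1017 genes called higher in this contrast, replicate 1 was highest for 29.4% and replicate 3 lowest for 33.5%. Dusp6 itself did not follow this order, with 1770, 1905 and 1771 counts in replicates 1, 2 and 3. Without siDUSP6 replicate 3, the log2 fold change of Mx2 was 6.14 and the bound for Gbp5 was 10.1-fold.

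**Figure D4:**
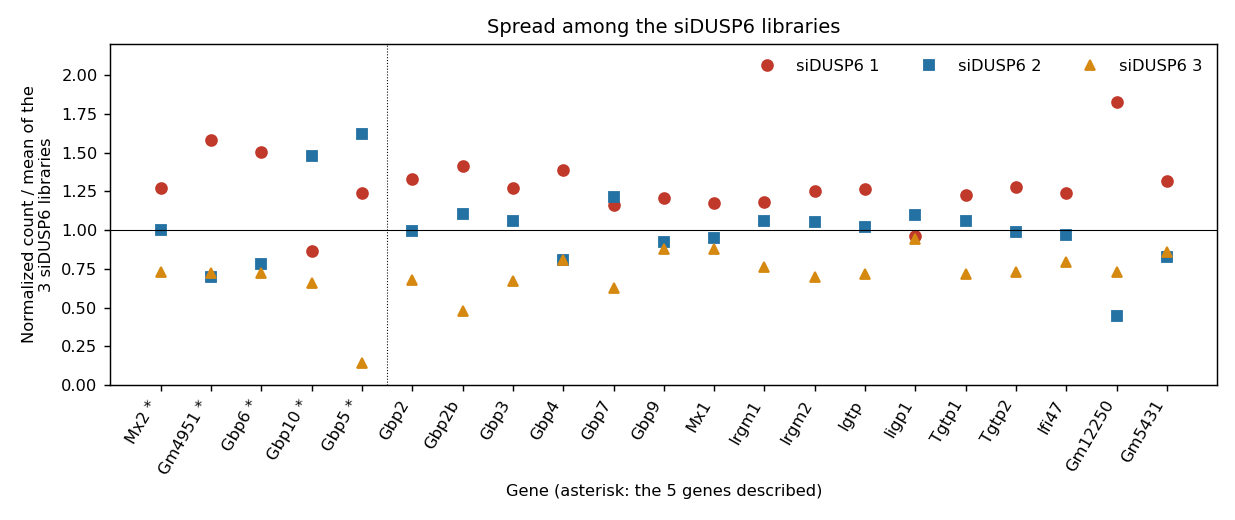
Normalized count in each siDUSP6 library divided by the gene's mean over the 3 siDUSP6 libraries (y axis), for the 5 genes described (left of the dotted line) and the other listed Gbp, Mx and IRG genes (x axis). Replicate 1 is highest for 17 and replicate 3 lowest for 17 of the 21 genes.

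Relatives of the 5 genes were higher in the same contrast. The family counts and medians that follow include the 5 genes themselves. Of 11 Gbp genes 5 were called higher and 0 lower. Another 4 were listed without an adjusted p (Gbp2b and the described Gbp5, Gbp6 and Gbp10), and 2 were not listed. Of 13 IRG genes 8 were higher and 0 lower, 2 had no adjusted p (Gm12250 and the described Gm4951) and 3 were not listed. Both Mx genes were higher, Mx1 and the described Mx2. Of all tested genes 7.76% were higher and 7.19% lower. The median deposited log2 fold change of the called genes was 4.69 for Gbp, 4.61 for IRG (4.59 with Iigp1 at its bound) and 6.01 for Mx, against 0.42 over all 1017 genes called higher. These lists were written with results of these data known, and the counts are descriptions.

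Mx1, the gene of the nuclear anti-influenza Mx protein of mice, had 131, 108 and 96 counts with siDUSP6, against 2, 2 and 1 with NC. This was a log2 fold change of 5.92 ± 0.37 (SE). As for Mx2, the count measures RNA and says nothing of a working protein. The change of Mx1 differed from that of Mx2 by less than either SE. Its level per kb was lower, at 29.0 ± 4.52 against 118 ± 31.9 for Mx2 in siDUSP6 libraries (SD, n = 3). The highest GBP by level was Gbp9, with 1168, 913 and 834 counts against 228, 152 and 209 with NC, a log2 fold change of 2.27 ± 0.16. Unlike the 4 low genes it was well expressed without the knockdown. Gbp2 had 289, 221 and 144 counts with siDUSP6 against 36, 13 and 26 with NC (3.08 ± 0.33), Gbp3 280, 239 and 145 against 0, 1 and 5 (6.66 ± 0.49), and Gbp4 98, 58 and 56 against 3, 2 and 3 (4.63 ± 0.44). The summed counts of Gbp7 were 187 with siDUSP6 and 2 with NC, a ratio of 91.0 (95% interval 24.8 to 757, exact binomial). Those of Gbp2b, which has no adjusted p, were 32 with siDUSP6 and 1 with NC, a ratio of 31.1 (5.20 to 1270). Gbp8 and Gbp11 were not listed.

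Among the IRGs, the regulator Irgm1, which guards the cell's own membranes, was the highest, with 6223, 5687 and 3931 counts with siDUSP6 against 992, 962 and 1128 with NC, a log2 fold change of 2.32 ± 0.14 (SE). The regulators Irgm2 and Igtp changed more, by 4.64 ± 0.27 and 4.57 ± 0.25. The effector Iigp1, the gene nearest in sequence to Gm4951 (87 shared words), had 24, 28 and 23 counts against 0, 0 and 0 with NC. It was 24.3-fold higher on the floor of 3 counts, a bound of the same kind as for Gm4951. Tgtp2 and Tgtp1 rose by 5.94 ± 0.43 and 4.64 ± 0.56, and share 86.6% and 81.2% of their words with other genes, so their split is uncertain too. Gm5431 rose by 3.42 ± 0.48 and Ifi47 by 2.10 ± 0.20, while Gm12250, without an adjusted p, had 28, 7 and 11 counts against 4, 4 and 3. Without each library in turn the refit passed 15 or 16 of these 21 genes, against 15 with all libraries.

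**Figure D5:**
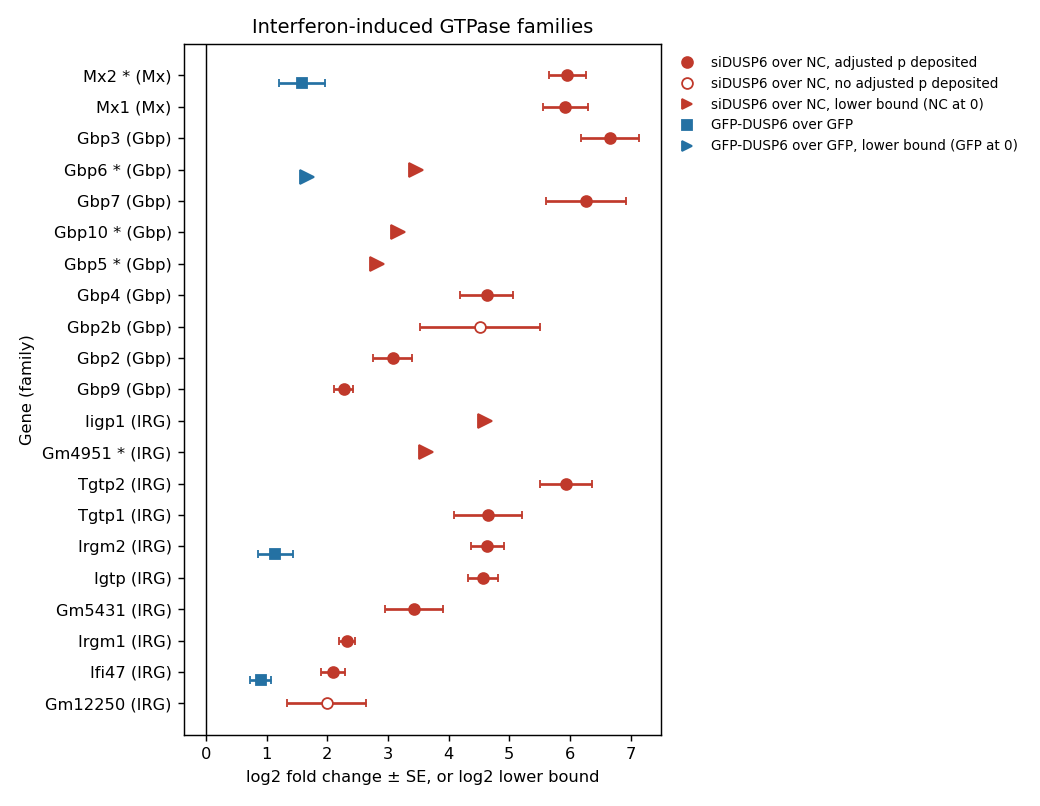
Log2 fold change ± SE of siDUSP6 over NC (red) and of GFP-DUSP6 over GFP (blue) from the unfiltered edgeR refit (x axis) for the listed Mx, Gbp and IRG genes (y axis). Open circles have no deposited adjusted p, triangles are log2 lower bounds where the control group is at 0, and asterisks mark the 5 genes described. All siDUSP6 values lie right of 0, and Mx2 is at 5.96 with siDUSP6 and 1.58 with GFP-DUSP6.

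Genes that carry the interferon signal were higher as well: 7 of 23 in the interferon signalling list were called higher and 0 lower, and the median of the 7 was 3.12 on the log2 scale. The share of all tested genes was 7.76% higher and 7.19% lower, against which the counts of each list here are to be read. Irf7, a transcription factor that amplifies the response, changed by 7.14 ± 0.24 (SE), Usp18, which damps receptor signalling, by 6.46 ± 0.26, and Irf9, a DNA-binding subunit of the complex that binds ISRE elements, by 3.12 ± 0.14. Interferon genes and receptors of the list were not listed in this table. GTPases of the dynamin type outside the interferon families had 3 of 15 called higher and 0 lower, with a median of 0.32, and the largest was Ehd1 (0.47 ± 0.08), which acts in membrane recycling. Dnm2 changed by 0.32 ± 0.08, and Ehd2 by 0.24 ± 0.08 (adjusted p = 0.0736 in the edgeR refit, although called in the deposited table). Of the ATG8 conjugation list, whose products target GBPs and IRGs to vacuoles, 1 of 10 was higher, near that share (Gabarapl2, 0.30 ± 0.08), and of the inflammasome list 0 of 8 were called or listed. Leaving out each of the 6 libraries, Ehd1 passed the refit 6 times, Dnm2 4 times and Gabarapl2 2 times.

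The genes whose values over the 6 siDUSP6 and NC libraries were most like those of Mx2 were Ddx60 (0.17 log2 units), Ifit1 (0.18) and Rtp4 (0.22). Likeness was the root mean square difference of log2(normalized count + 1), each gene centred on its own mean, among 1886 genes whose higher group averaged 50 or more. Over the 6 plasmid libraries, among 571 such genes, Oas3 (0.12), Usp18 (0.19) and Ifit1 (0.29) were nearest to Mx2. Ddx60 was at 0 in all NC libraries, so its likeness depends on the added count of 1. The same holds for Gm4951, Gbp5, Gbp6 and Gbp10, for which no like genes are given.

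With the plasmids Mx2 was also higher, by a smaller amount, and Gbp6 was at a few counts. The label of this contrast needs care: Dusp6 had 2445, 2537 and 2285 counts in the libraries labelled GFP-DUSP6, against 3216, 3112 and 3451 with GFP, a deposited log2 fold change of -0.51 (adjusted p = 2.56e-12, DESeq2), so it was lower where overexpression is labelled. No source used here says whether plasmid transcripts enter that count. Mx2 had 35, 32 and 32 raw counts in the libraries labelled GFP-DUSP6, against 13, 12 and 6 with GFP. The groups did not overlap, and GFP replicate 3 was the lowest. This was 32.1 ± 2.37 normalized counts in the libraries labelled GFP-DUSP6 against 10.7 ± 4.15 with GFP (SD, n = 3 each). On the log2 scale the fold change was 1.58 ± 0.35 (SE; edgeR adjusted p = 0.0153).

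The call for Mx2 in this contrast was narrow. Its deposited adjusted p was 0.0479 (DESeq2), and 4.61% of the 12592 genes implied as tested were called, 3.39% higher and 1.22% lower. Of the 5 genes only Mx2 and Gbp6 are listed here, and the count filter kept Mx2 alone. Mx2 passed the edgeR refit with the filter (3.18% of genes higher) and without it (3.40%). Neither gene passed a DESeq2 refit (3.37%). These shares are of the 12592 genes, although only the 707 listed genes were refitted. In the edgeR refit the adjusted p was 0.0616, 0.0573 and 0.0616 when GFP-DUSP6 replicate 1, 2 or 3 was left out, and 0.110 when GFP replicate 3 was. With scaling over the listed genes it was 0.157 (TMM, edgeR). That scaling takes most genes as unchanged, whereas the listed genes were selected, so this value alone cannot decide the call. Gbp6 had 4, 4 and 2 raw counts in the libraries labelled GFP-DUSP6, against 0, 0 and 0 with GFP. Its sum of 10 (interval 4.80 to 18.4) makes it 3.15-fold higher on the floor of 3 counts, or 2.06-fold without GFP replicate 3. It has no adjusted p, its deposited p was 0.0438 (DESeq2), and the unfiltered edgeR refit did not pass it (adjusted p = 0.204). In these 2 genes every GFP-DUSP6 library was above every GFP library, which held for 68.9% of the 707 listed genes.

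The difference between the contrasts was tested for Mx2. Its log2 fold change was larger with siDUSP6 than with GFP-DUSP6 by 4.38 ± 0.58 (SE; interaction term of an edgeR fit on all 12 libraries, adjusted p = 1.20e-05 over the 255 of 257 shared genes that could be fitted). It ranged from 4.17 to 4.68 without each library in turn. The contrasts differ in reagent and in time after transfection, so what sets this difference cannot be told apart. Gbp6 was too low for that fit.

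Few relatives were listed with the plasmids, only the IRG genes Ifi47 and Irgm2. Of 13 IRG genes these 2 were called higher and 0 lower. Of 2 Mx genes 1 was called higher, Mx2 itself. Of 11 Gbp genes 0 were called, and only Gbp6 itself was listed, without an adjusted p. Over all tested genes 3.39% were higher and 1.22% lower. Ifi47 had 130, 130 and 138 counts in the libraries labelled GFP-DUSP6 against 65, 70 and 66 with GFP (0.90 ± 0.17, SE). Irgm2 had 69, 67 and 68 against 16, 41 and 30 with GFP (1.14 ± 0.28), and its adjusted p in the edgeR refit was 0.0811 to 0.128 when any library but GFP replicate 2 was left out. In the signalling list 4 of 23 were higher and 0 lower, among them Irf1 (0.78 ± 0.12), Ifngr2 (0.45 ± 0.10) and Usp18 (1.55 ± 0.31). For Irf1 the changes in the contrasts differed by 0.12 ± 0.21 (siDUSP6 minus GFP-DUSP6, adjusted p = 0.598, edgeR interaction), and for Usp18 by 4.91 ± 0.54 (adjusted p = 2.30e-06). Of the inflammasome list 2 of 8 were higher, Casp4 (1.15 ± 0.19), a sensor of bacterial lipopolysaccharide that GBPs serve, and Gsdmd (0.39 ± 0.05), which forms the pore. When each of the 6 libraries was left out in turn, Irf1, Ifi47, Casp4 and Gsdmd passed the refit all 6 times, Usp18 4 times, Ifngr2 3 times and Ehd4, named next, 1 time. Of the dynamin-type list 0 were higher and 1 was lower, Ehd4 (-0.20 ± 0.05), and 0 of 10 of the ATG8 list were called. With TMM scaling over the listed genes Ifi47 (edgeR adjusted p = 0.144) and Usp18 (edgeR adjusted p = 0.101) did not pass. Ifngr2 changed by 0.135 ± 0.0916 (SE) under that scaling and did not pass, while Ehd4 passed, at -0.521 ± 0.0491. That scaling takes most genes as unchanged, whereas the listed genes were selected and more were called higher than lower. It therefore cannot decide these calls.

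Markers of bile duct cells changed in both contrasts, in mixed directions. With siDUSP6, 1 of 6 biliary markers was called higher (Sox9, deposited log2 fold change 0.78) and 2 lower (Spp1, -0.53, and Anxa13, -0.58). In the libraries labelled GFP-DUSP6 1 was higher (Spp1, 0.57) and 2 lower (Krt19, -0.39, and Sox9, -0.43). Of all tested genes 7.76% were higher and 7.19% lower with siDUSP6, and 3.39% and 1.22% in the libraries labelled GFP-DUSP6. The 3 listed markers are not the same genes in each contrast, so their sums cannot be compared between contrasts. Sox9, Spp1 and Anxa13 summed to 2675 to 2806 normalized counts with siDUSP6 and 2564 to 3037 with NC. Krt19, Sox9 and Spp1 summed to 31284 to 31714 with GFP-DUSP6 and 38697 to 41222 with GFP. Most of these plasmid sums was Krt19, with 28985, 30415 and 29516 raw counts with GFP-DUSP6 against 35124, 36770 and 38154 with GFP. Of 8 hepatocyte markers 4 were lower with siDUSP6, where 7.19% of tested genes were, among them Alb, with 130, 209 and 183 counts against 610, 597 and 800 with NC. The 4 summed to 1973 to 2195 normalized counts with siDUSP6 and 2927 to 3779 with NC. In the libraries labelled GFP-DUSP6 1 of 8 was higher (Apob, 0.34), where 3.39% of tested genes were. Of 7 macrophage markers only Cd14 was listed, lower with siDUSP6 (-0.48) and higher in the libraries labelled GFP-DUSP6 (0.51). None of the 6 T and NK cell markers and none of the 6 stellate markers was listed, and of 6 endothelial markers Stab1 was listed with the plasmids (1.12). Levels of unlisted genes are not known here, and the part of cell identity in the results was not tested.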

How the data were processed

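The 5 genes and the lists were chosen with earlier results of these data known. Each contrast has a table in which the authors deposited counts of reads for each gene and library, per the file headers, beside their log2 fold change, p-value and adjusted p-value. The siRNA table also holds their mean normalized signal and linear fold (ratio). Per the submitters' processing notes DESeq2 was used and the build is mm10. No source used here gives the aligner, counting tool or annotation. The tables hold 2150 and 707 selected genes, of which 191 and 127 have no adjusted p. Their largest p values are 0.0499 and 0.0500. Library depth is therefore unknown, and listed genes sum to 3500977 to 4078892 (siRNA) and 1303866 to 1531091 (plasmid) counts per library.

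Size factors (0.951 to 1.04 and 0.940 to 1.05) were recovered from the deposited mean signal or, for plasmids, from the deposited fold changes of 489 genes. A gene is called where the deposited adjusted p is under 0.05. The number tested was taken from the relation of adjusted p, rank and p (1645 and 505 genes within 0.01 of a whole number). Fold changes ± SE come from edgeR 4.0.16 (R 4.3.3) quasi-likelihood fits on each whole table with filterByExpr (minimum count 10), adjusted by Benjamini-Hochberg over the number tested and checked on simulated counts. Dispersion in these fits rests on listed genes. Alternatives were other scalings, no filter, DESeq2 1.42.0, the replicate block and leaving out each library. All replicate pairs differed beyond counting noise (chi-square over its degrees of freedom 3.89 to 25.7). Named genes were the 5, each listed Gbp, Mx and IRG gene, up to 3 of each other list by adjusted p, and 3 genes of like pattern for Mx2 (that rule also selects genes not reported here). List genes were matched by identifier (123 of 125). Of the hepatocyte list Alb and Apob are named. Sequences are RefSeq promoters (GRCm38.p6) and GENCODE M21 transcripts.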

Additional observations from a re-analysis of the deposited data

How the results depend on the processing

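With siDUSP6, 1 of the 5 genes was called by the deposited adjusted p and 1 passed the edgeR refit, and 5 passed without the count filter and with DESeq2, since the 4 genes at 0 in NC are tested only there. The count was 1 to 1 without each library, and 1 under both scalings over the listed genes and with the replicate block. The log2 fold change of Mx2 was 5.75 to 6.14 without each library and kept its call under every alternative run. With the plasmids 1 gene passed the refit. It was 0 with DESeq2, TMM and median of ratios, and 0 to 1 without each library. For Mx2 there the log2 fold change was 1.28 to 1.78 without each library, 1.27 with TMM (adjusted p = 0.157), 1.26 with median of ratios (adjusted p = 0.136) and 1.59 with DESeq2 (adjusted p = 0.0567). These scalings shift listed genes by a median of -0.32 and -0.33 with the plasmids, and by -0.06 and -0.09 with siDUSP6. They take most genes as unchanged, whereas the listed plasmid genes were selected, with 427 called higher and 153 lower. A lost call under these scalings therefore cannot be told apart from that shift. No direction changed. Of the 4 Gbp, Mx and IRG genes listed with the plasmids, Mx2 and Gbp6 among them, 3 passed. It was 0 with TMM or median of ratios, 2 with DESeq2 and 1 to 3 without each library. The difference between contrasts for Mx2 was 4.17 to 4.68 without each library and kept its call. Fold bounds without each library were 4.63 to 10.1 (Gbp5), 7.23 to 12.6 (Gbp6), 5.92 to 10.6 (Gbp10) and 8.09 to 14.2 (Gm4951) with siDUSP6, and 2.06 to 3.79 (Gbp6) with GFP-DUSP6. The lowest came without a control library, where the floor is spread over fewer libraries. Bounds from summed counts, added after the data were seen, were 7.33, 11.3, 9.33, 12.7 and 3.33. Same-numbered libraries are not stated to be paired, and their deviations correlated at 0.37, 0.09 and 0.18 (siRNA) and 0.35, 0.37 and 0.01 (plasmid), so the block was not used. With the block Mx2 changed by 5.95 (adjusted p = 4.12e-13) and 1.59 (adjusted p = 0.00262, edgeR).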

Other observations

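Beyond the lists, the siDUSP6 table holds further rows whose deposited protein description names an interferon-inducible GTPase, chosen after their values were seen. BC023105, on chromosome 18 like Gm4951, had 8, 8 and 1 counts with siDUSP6, against 0, 0 and 0 with NC, and no adjusted p. Gvin-ps7, on chromosome 7, had 73, 45 and 33 counts with siDUSP6, against 11, 10 and 14 with NC, and a deposited log2 fold change of 2.07 (adjusted p = 0.000181, DESeq2). In both the replicate with the fewest counts was replicate 3, as for Gbp5 and Mx2.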
